A study of Mus musculus with 4 samples.

Results

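The genes described here encode the chains of the receptors for the common gamma chain cytokines and for IL-6. They were taken by symbol from the gene counts of Tfh-polarized CD4+ T cells, and all 10 members (Il2ra, Il2rb, Il2rg, Il4ra, Il7r, Il9r, Il15ra, Il21r, Il6ra and Il6st) were found among the 54752 genes listed. The comparison was between WT mice and Mek1/2-tKO mice, which carry Cd4-Cre and are homozygous for floxed Map2k1 and for floxed Map2k2, the genes of MEK1 and MEK2, so that deletion begins where the Cd4 promoter becomes active in developing T cells. Each genotype had 2 libraries, made on day 3 from viable cells that had started as naïve splenic CD4+ T cells. Cells of both genotypes were stimulated through CD3 and CD28 in medium with IL-6, while IL-2, IL-4, IFN-γ and TGF-β were blocked by antibodies. The age of the donor mice, and whether the WT mice carried floxed alleles, are not given in the sources used here for these libraries. Nothing in the labels says that the libraries came from separate mice, so that p values measure the spread between these libraries only.

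Cytokines of this group act through receptors built from shared parts. The common gamma chain, Il2rg, pairs with Il4ra, Il7r, Il9r or Il21r to bind IL-4, IL-7, IL-9 or IL-21, and with Il2rb to form the signaling pair for IL-2 and IL-15, to which Il2ra (CD25) or Il15ra adds high affinity. IL-6 binds Il6ra, and the complex signals through Il6st (gp130), a chain that other cytokines of the IL-6 family also use. The receptors signal through JAK kinases and STAT factors. In Tfh cells, IL-6 and IL-21 act through STAT3 and favour Bcl6, whereas IL-2 acts through STAT5 and opposes it.

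The labelled cell type was compared with its markers. Levels are given as CPM, the reads of a gene scaled to the TMM-adjusted library size, and SE is the standard error of a log2 fold change. Library totals lay between 16330802 and 18931090 counts. Mitochondrial genes took 1.62 and 1.56% of the counts in WT and 2.24 and 1.99% in Mek1/2-tKO libraries, without overlap, and the part of this difference in the receptor values was not tested. Of the targeted genes, Map2k1 had a log2 fold change of -0.86 in Mek1/2-tKO over WT cells and Map2k2 one of 0.15 (adjusted p = 0.126 in the quasi-likelihood test of edgeR), and reads on the floxed exons alone were not examined, since the counts are over whole genes. Cd4 itself was at 297 and 289 CPM in WT but at 18.8 and 25.1 CPM in Mek1/2-tKO libraries, which goes against the label of CD4+ T cells for the latter. Of 7 T-cell markers, 5 were lower and 0 were higher at an adjusted p below 0.05 and a 1.5-fold change or more, with summed levels of 1396 and 1417 CPM in WT and of 723 and 657 CPM in Mek1/2-tKO. The other 2 were Cd3d, with a log2 fold change of 0.20 (edgeR adjusted p = 0.0945), and Cd3g, with 0.24 (edgeR adjusted p = 0.0254), so that the list did not move in 1 direction. All 8 B-lineage markers were higher, and their sum went from 1167 to 1192 CPM in WT to 6031 to 6128 CPM in Mek1/2-tKO. By the same thresholds, 16.4% of all genes tested were lower and 19.3% were higher. The summed levels also rose for 6 NK-cell markers (95.4 to 99.0 CPM in WT, 587 to 630 CPM in Mek1/2-tKO) and for 6 CD8 and gamma-delta T-cell markers (62.8 to 73.5 CPM in WT, 331 to 373 CPM in Mek1/2-tKO). Most of the NK-cell sum was the single gene Nkg7, at 62.8 and 65.1 CPM in WT and 436 and 405 CPM in Mek1/2-tKO. The 7 myeloid markers were low, at 4.57 to 5.08 CPM in WT and 22.7 to 28.0 CPM in Mek1/2-tKO, with Adgre1 at 0 in WT. B cells are known to carry Il2rg, Il4ra and Il21r as well, and NK cells carry Il2rb. The part of the cells with these markers in the receptor values was not tested. The same holds for the ligand, partner chain, JAK, STAT and response genes below. In bulk RNA fewer cells of a type cannot be told apart from less RNA per cell.

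The receptor genes were lower in Mek1/2-tKO cells than in WT cells, with the exception of the shared chain Il2rg. All 10 members had enough counts to be tested, and 4 of them (Il2ra, Il6ra, Il6st and Il9r) were lower past both of these thresholds, which are those of the study, while 0 were higher. Of the 14330 genes tested, 16.4% were lower and 19.3% were higher by the same rule. Without the fold change threshold, 9 members were lower and 0 higher, beside 27.2% lower and 27.8% higher among all genes tested. The median log2 fold change of the members was -0.52, and that of all genes tested was 0.015. Both Mek1/2-tKO libraries lay below both WT libraries in 9 members, which was also the case for 38.8% of the genes tested. With 2 libraries in each genotype the smallest two-sided p of an exact permutation test is 0.333, so that the adjusted p borrows its estimate of the spread from the other genes.

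**Figure D1:**
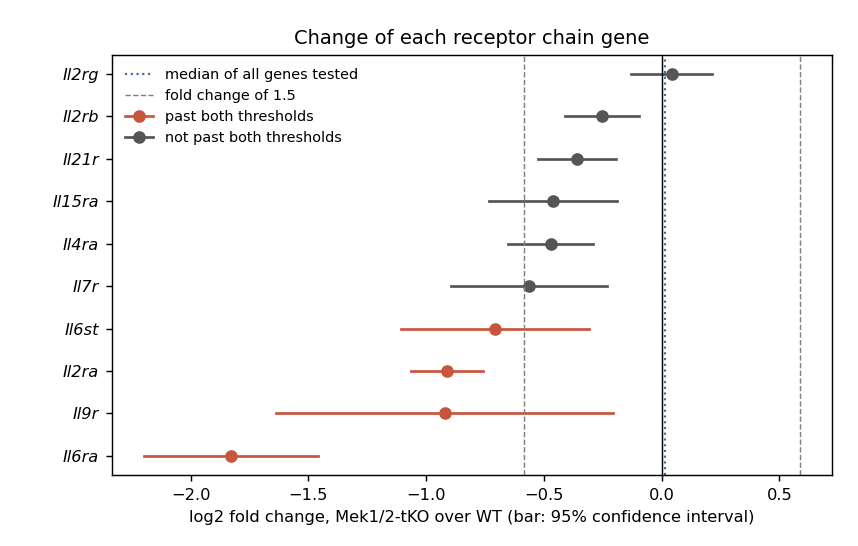
The log2 fold change of each receptor gene in Mek1/2-tKO over WT cells is drawn as a point with its 95% confidence interval as a bar. The 4 members past both thresholds are in red, dashed lines mark a fold change of 1.5, and the dotted line marks the median of all genes tested, 0.015. Il6ra stands farthest to the left at -1.83, and the interval of Il2rg spans 0.

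The chains of the IL-6 receptor were read first, as IL-6 was the cytokine supplied to the cultures. Il6ra, which encodes the chain that binds IL-6 (ENSMUSG00000027947.11, chromosome 3, 89864059 to 89913196 in GRCm38), was at 22.7 and 24.2 CPM in the WT libraries and at 6.07 and 7.08 CPM in the Mek1/2-tKO libraries. The groups were far apart, with 442 and 467 reads against 94 and 133. Its level in Mek1/2-tKO cells was 28.2% of that in WT, a log2 fold change of -1.83 (SE 0.17, edgeR adjusted p = 1.09e-06), which was larger than the change of any other member. Il6st, the signal-transducing chain (chromosome 13, 112464070 to 112510086), was at 19.4 and 19.3 CPM in WT and at 9.56 and 14.0 CPM in Mek1/2-tKO. The Mek1/2-tKO libraries differed from each other more than the WT libraries did. The log2 fold change of Il6st was -0.71 (SE 0.19, edgeR adjusted p = 0.00539), and it was -0.47, under the fold change threshold, without Mek1/2-tKO replicate 1 and -1.02 without Mek1/2-tKO replicate 2. Among the 9605 other genes whose log2 CPM averaged 3 or more, those whose centred log2 CPM over the 4 libraries lay nearest to that of Il6ra were Uhrf1bp1, Cbarp and Arrb1, with root mean square differences of 0.037, 0.042 and 0.048. With 4 libraries in 2 groups this likeness is mostly that of the fold change, which was -1.75, -1.78 and -1.81 in these genes.

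The IL-2 and IL-15 receptors share Il2rb and Il2rg and differ in the chain that adds affinity. Il2ra, the high-affinity chain for IL-2 and an activation marker of T cells (chromosome 2, 11642807 to 11693193), was at 657 and 649 CPM in WT and at 346 and 348 CPM in Mek1/2-tKO. Replicates lay close together in both genotypes, and the groups did not overlap. The level in Mek1/2-tKO was 53.2% of that in WT, with a 95% confidence interval of the log2 fold change from -1.07 to -0.76. Il2ra and Il7r were among the genes that the study selected for display from these libraries, so that their direction is not independent evidence. The study gives both as downregulated, although Il7r was under the fold change threshold here. It also reports Il21r and Il6st as upregulated in Mek1/2-tKO OT-II cells transferred into immunized mice. Both genes were lower in the polarized cells read here, which are a different setting. Il15ra, which presents and binds IL-15 (chromosome 2, 11705290 to 11734317), was at 36.5 and 32.4 CPM in WT and at 24.2 and 25.9 CPM in Mek1/2-tKO. Its log2 fold change of -0.46 (SE 0.13, edgeR adjusted p = 0.00685) was under the fold change threshold, and its adjusted p was 0.0939 without WT replicate 1. Il2rb, the signaling chain of both receptors (chromosome 15, 78479256 to 78495271), was at 627 and 648 CPM in WT and at 520 and 549 CPM in Mek1/2-tKO. It had the smallest difference of the members that passed the adjusted p, with a log2 fold change of -0.25 (SE 0.07, edgeR adjusted p = 0.00978), and the adjusted p was 0.11 and 0.194 without WT replicate 1 and without WT replicate 2.

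Il2rg, the chain shared by the receptors of this group other than that of IL-6 (chromosome X, 101264378 to 101268255), was at 128 and 132 CPM in WT and at 133 and 134 CPM in Mek1/2-tKO. The 4 libraries spanned a narrow range. Its log2 fold change was 0.043 (SE 0.08, edgeR adjusted p = 0.677), with a 95% confidence interval from -0.13 to 0.22, so that a change of 1.5-fold in either direction lay outside the interval. Scaling by library size alone turned its sign, to -0.042. Of its exon bases, 30.5% are shared on the same strand with Gm20489, which itself had 0 or 1 reads in each library, and reads that fall on both genes may not have been counted.

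The chains that give specificity for IL-4, IL-7, IL-9 and IL-21 were lower to different degrees. Il4ra, the IL-4 binding chain (chromosome 7, 125552120 to 125579474), was at 432 and 448 CPM in WT and at 293 and 342 CPM in Mek1/2-tKO. The log2 fold change was -0.47 (SE 0.08, edgeR adjusted p = 3.05e-04), and without Mek1/2-tKO replicate 2 it was -0.59 and past the fold change threshold. Il21r, the chain for the Tfh cytokine IL-21 (chromosome 7, 125603429 to 125633570), was at 225 and 239 CPM in WT and at 176 and 186 CPM in Mek1/2-tKO. Its log2 fold change of -0.36 (SE 0.08, edgeR adjusted p = 0.0013) was also under the fold change threshold, and the groups did not overlap. Without WT replicate 2 its adjusted p was 0.0634. Il7r, the IL-7 receptor chain of naïve and memory T cells (chromosome 15, 9505788 to 9530176), was at 22.9 and 20.5 CPM in WT and at 15.8 and 13.7 CPM in Mek1/2-tKO. The log2 fold change of Il7r was -0.56 (SE 0.15, edgeR adjusted p = 0.00674), just short of a 1.5-fold change, which it reached with library size scaling (-0.65), without WT replicate 2 (-0.64) and without Mek1/2-tKO replicate 1 (-0.67). Its adjusted p without WT replicate 1 was 0.0529. Il9r, the IL-9 binding chain (chromosome 11, 32187541 to 32200279), had few reads, 73 and 92 in WT and 34 and 43 in Mek1/2-tKO. The WT libraries were at 3.75 and 4.77 CPM, and the Mek1/2-tKO libraries at 2.20 and 2.29 CPM. Its log2 fold change of -0.92 had an SE of 0.33 and a 95% confidence interval from -1.64 to -0.21 (edgeR adjusted p = 0.0305), and DESeq2 gave an adjusted p of 0.126. Without WT replicate 2 and without Mek1/2-tKO replicate 1 the adjusted p of Il9r was 0.22 and 0.0612, so that its call depended on single libraries.

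Levels of different genes were compared as RPKM, that is CPM for each kilobase of exon, computed from the same scaled counts and the deposited exon length. This length joins the exons of every annotated transcript and may be longer than the transcript expressed, which lowers the RPKM of a gene such as Il6st with 11099 exon bases. The RPKM of Il2rg would also be too low if reads on the 30.5% of its exon bases shared with Gm20489 were not counted. Its place in the order of either genotype is therefore uncertain. In WT cells the order was Il2rb (149 ± 3.38), Il2ra (114 ± 1.04), Il4ra (73.4 ± 1.87), Il21r (69.8 ± 2.97) and Il2rg (54.4 ± 1.04 RPKM, SD, n = 2 each). The other 5 members were under 10 RPKM, from Il15ra (7.75 ± 0.656) to Il9r (0.861 ± 0.147), and no pair of neighbours in the WT order overlapped. Il4ra and Il21r were barely separate, with Il4ra at 72.0 RPKM in WT replicate 1 and Il21r at 71.9 RPKM in WT replicate 2. In Mek1/2-tKO cells Il2rb (125 ± 4.81) still had the highest level, followed by Il2ra (60.8 ± 0.27), Il2rg (56.1 ± 0.238), Il21r (54.4 ± 2.14) and Il4ra (52.9 ± 5.69 RPKM). The values of Il21r and Il4ra overlapped in this genotype. Il2rg and Il21r were barely separate, with Il2rg at 55.91 RPKM in Mek1/2-tKO replicate 1 and Il21r at 55.90 RPKM in Mek1/2-tKO replicate 2. Il6ra was above Il6st in WT, at 2.71 ± 0.126 against 1.74 ± 0.00664 RPKM, and below it in Mek1/2-tKO, at 0.761 ± 0.0827 against 1.06 ± 0.283 RPKM. The highest member exceeded the lowest 173-fold in WT and 275-fold in Mek1/2-tKO.

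**Figure D2:**
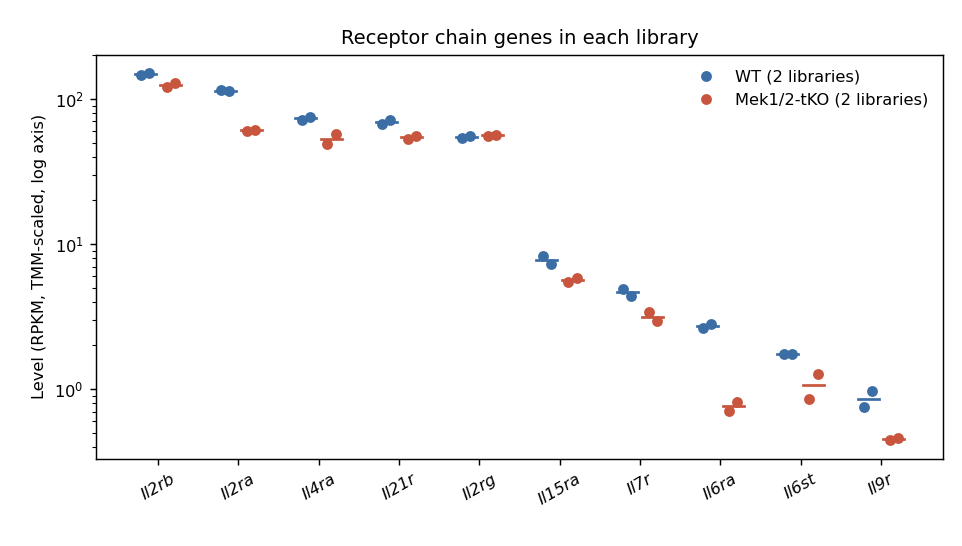
Each point is the level of a receptor gene in 1 library in RPKM on a log axis, and the line is the mean of the 2 libraries of a genotype (blue, WT; red, Mek1/2-tKO). The points of Il2rg nearly coincide, while the red points of the other 9 genes lie below the blue ones, with the widest gap in Il6ra.

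A ratio of 2 chains within a library does not depend on how the library was scaled. It does depend on the exon lengths, and ratios to Il2rg would be too high if reads shared with Gm20489 were not counted. Whether such a ratio lies above or below 1 is therefore uncertain, and the ratios are read between genotypes only. Il2ra had 2.14 and 2.06 times the RPKM of Il2rg in the WT libraries and 1.08 and 1.08 times in the Mek1/2-tKO libraries. The ratio of Il4ra to Il2rg went from 1.34 and 1.35 in WT to 0.874 and 1.01 in Mek1/2-tKO, and that of Il21r to Il2rg from 1.26 and 1.30 to 0.946 and 0.994. Il2rb had 2.72 and 2.74 times the RPKM of Il2rg in WT and 2.17 and 2.28 times in Mek1/2-tKO. For the IL-6 receptor, the ratio of Il6ra to Il6st was 1.50 and 1.61 in WT and 0.816 and 0.649 in Mek1/2-tKO. In each of these 5 ratios the genotypes did not overlap. Both Mek1/2-tKO libraries also lay below both WT libraries in 38.8% of the single genes tested. As Il2rg itself had a log2 fold change of 0.043, the ratios to it largely restate the changes of the other chains. The ratios of Il7r to Il2rg, Il9r to Il2rg and Il2ra to Il2rb were computed too and did not overlap between genotypes. The ratio of Il15ra to Il2rb, at 0.0562 and 0.0482 in WT and 0.0448 and 0.0454 in Mek1/2-tKO, did not overlap either, but the gap between the genotypes was smaller than that between the WT libraries.

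**Figure D3:**
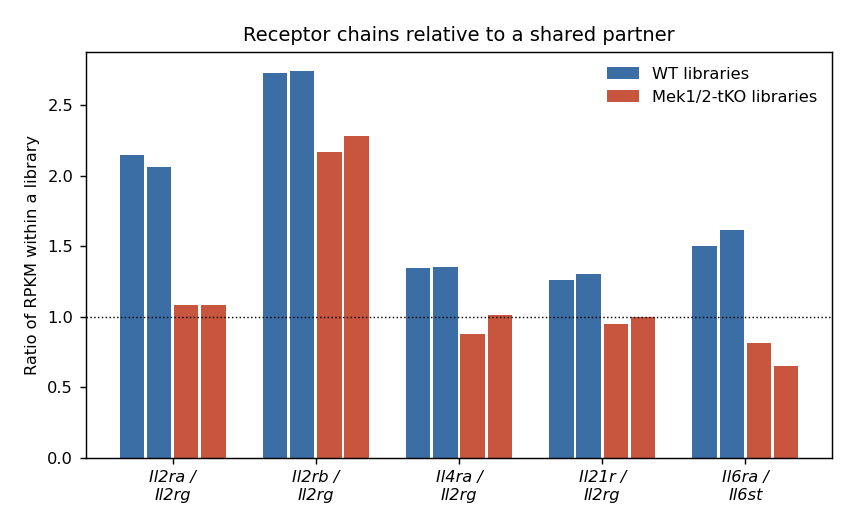
Bars give the ratio of the RPKM of 2 receptor chains in each library, WT in blue and Mek1/2-tKO in red, with a dotted line where both RPKM are equal. Ratios to Il2rg would be too high if reads it shares with Gm20489 were not counted. Il2ra over Il2rg is lower in both Mek1/2-tKO libraries than in both WT libraries, and so is Il6ra over Il6st. Where a bar stands relative to the line depends on the exon lengths and is not read.

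Several members lie beside each other in the genome. Il2ra and Il15ra are on the same strand of chromosome 2 with 12096 bases between them, and Il4ra and Il21r are on the same strand of chromosome 7 with 23954 bases between them, and no tested gene lies between either pair. The flanking tested genes of the first pair were Rbm17, with a log2 fold change of 0.16 (edgeR adjusted p = 0.0865), and Fbh1, with -0.38 (edgeR adjusted p = 0.0129). Those of the second pair were Nsmce1, with -0.24, and Gtf3c1, with -1.24, of which only Gtf3c1 passed both thresholds. Other genes on the opposite strand share 9.51% of the exon bases of Il4ra and 2.80% of those of Il6ra, with at most 10 reads in any library, and the remaining 7 members apart from Il2rg share none.

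Upstream sequence was read for the members from RefSeq (GRCm38.p6), which held 10 windows for 9 members. The 250 bases before the annotated start are shown for Il6ra and Il2ra, the 2 members with the smallest adjusted p, and for Il2rg, whose interval spanned 0, each from 5′ to 3′ on the strand of the gene. Capitals mark the letters CCGGAAG, an ETS family motif. The windows are chr3:89913197-89913446 on the minus strand for Il6ra, chr2:11642542-11642791 on the plus strand for Il2ra and chrX:101268256-101268505 on the minus strand for Il2rg.
Il6ra: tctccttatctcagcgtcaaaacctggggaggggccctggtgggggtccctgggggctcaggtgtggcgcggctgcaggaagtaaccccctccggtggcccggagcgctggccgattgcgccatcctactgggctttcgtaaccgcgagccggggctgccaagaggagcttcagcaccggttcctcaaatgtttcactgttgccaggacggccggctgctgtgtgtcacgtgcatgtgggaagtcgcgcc
Il2ra: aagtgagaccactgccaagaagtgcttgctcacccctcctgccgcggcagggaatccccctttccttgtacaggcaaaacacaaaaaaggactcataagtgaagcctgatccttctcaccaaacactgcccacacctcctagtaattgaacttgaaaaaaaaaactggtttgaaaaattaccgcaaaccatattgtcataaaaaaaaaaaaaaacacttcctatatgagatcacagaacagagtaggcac
Il2rg: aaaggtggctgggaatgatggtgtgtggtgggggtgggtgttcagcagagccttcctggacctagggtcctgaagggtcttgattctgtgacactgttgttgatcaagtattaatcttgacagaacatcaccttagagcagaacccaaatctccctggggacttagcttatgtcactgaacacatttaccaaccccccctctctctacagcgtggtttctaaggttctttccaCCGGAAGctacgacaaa
The windows differ in base composition. That of Il6ra has 65.2% G and C and 18 CG dinucleotides, that of Il2ra 42.4% and 3, and that of Il2rg 49.2% and 3, beside medians of 52.4% and 6 over all 32851 windows. Il6st had the highest content of the members, with 66.0% and 26 CG dinucleotides. Of 6 motifs searched on both strands, the ETS letters CCGGAAG were found at bases -17 to -11 of Il2rg and in a window of Il15ra, and in 6.91% of all windows. The STAT letters TTCNNNGAA were found in the window of Il7r only among the members (7.02% of all windows), the AP-1 letters TGANTCA in the other window of Il15ra (6.75%), and the GC box GGGCGG in those of Il4ra, Il21r and Il6st (32.7%). The IRF letters GAAANNGAA were in the window of Il15ra that held the ETS letters (7.13%), and the TATA letters TATAAA were in no window of the members and in 12.4% of all windows. The starts are those of RefSeq and differ from the counted genes in places. The windows of Il7r and of Il15ra with the AP-1 letters lie inside the gene as counted. Those of Il4ra and of Il15ra with the ETS letters reach into it. The STAT letters of Il7r, the AP-1 letters of Il15ra and the GC box of Il4ra are thus not upstream of the counted genes. A match of letters is not a binding site, and a window without one says nothing about a factor.

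Ligand genes moved in both directions in the same libraries, in which markers of other cell types also rose. Which cells the ligand reads came from was not tested. Il2, the growth factor that T cells make on activation, was at 113 and 111 CPM in WT and at 15.6 and 9.64 CPM in Mek1/2-tKO, a log2 fold change of -3.17 (SE 0.16). Il21, the Tfh cytokine, was at 7.95 and 8.77 CPM in WT and at 1.03 and 1.81 CPM in Mek1/2-tKO. Both ligands and the chains Il2ra and Il21r were lower, although Il21r did not reach the fold change threshold. Il9 went the other way from Il9r, with 29 and 18 reads in WT and 298 and 222 in Mek1/2-tKO and a log2 fold change of 3.67 (SE 0.32). Il15 also rose, with a log2 fold change of 1.60 (SE 0.34). Il4 had a log2 fold change of -0.92 (edgeR adjusted p = 0.0665), and Il7 had too few reads to be tested. Of the 6 genes of common gamma chain cytokines, 5 were tested, 2 of which were lower and 2 higher past both thresholds. This count and those of the lists below stand beside 16.4% lower and 19.3% higher among all genes tested.

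The IL-6 family had 5 of 8 cytokine genes tested, with 3 higher and 1 lower. Il6 was at 1.44 and 1.76 CPM in WT and at 5.36 and 4.74 CPM in Mek1/2-tKO, a log2 fold change of 1.65 (SE 0.34), opposite to that of Il6ra. Clcf1 (1.40) and Il27 (2.73) rose as well, Il27 from 4 and 5 reads to 24 and 30. Lif, a ligand of Il6st, fell from 195 and 187 CPM to 47.0 and 46.0 CPM, whereas Lifr, its partner chain, rose by 3.18 on the log2 scale from 30 and 20 reads to 203 and 195. Of the 6 partner chains, 4 were tested, and Crlf2, which joins Il7r in the TSLP receptor, rose from 38.1 and 42.1 CPM to 84.4 and 91.2 CPM. The direction of Crlf2 was thus opposite to that of Il7r, which was at 22.9 and 20.5 CPM in WT and at 15.8 and 13.7 CPM in Mek1/2-tKO.

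Of the JAK and STAT genes, 8 are reported, of which 5 were lower and 0 were higher past both thresholds. Among all genes tested, 16.4% were lower and 19.3% were higher. The median log2 fold change of the list was -0.79, beside 0.015 for all genes tested. Jak3, the kinase bound by Il2rg, was at 173 and 179 CPM in WT and at 71.3 and 83.6 CPM in Mek1/2-tKO, a log2 fold change of -1.18 (SE 0.09), in contrast to Il2rg itself. Jak2 fell by 1.54 on the log2 scale. Jak1, the partner kinase in receptors of this group, had a log2 fold change of -0.16 (edgeR adjusted p = 0.0887). Stat5a (-0.90) and Stat5b (-0.96), which act downstream of IL-2, and Stat3 (-0.68), which acts downstream of IL-6 and IL-21, were lower past both thresholds. Stat6, downstream of IL-4, had a log2 fold change of -0.53, under the fold change threshold. Among 7 cytokine-response genes, Cish, a STAT5 target that restrains IL-2 signaling, had a log2 fold change of -0.98 and Bcl2 one of -0.67, while Socs1, an inhibitor of JAK kinases, rose by 1.34. The other 4 did not pass both thresholds, among them Socs3 (-0.47), an inhibitor of signaling through Il6st.

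**Figure D4:**
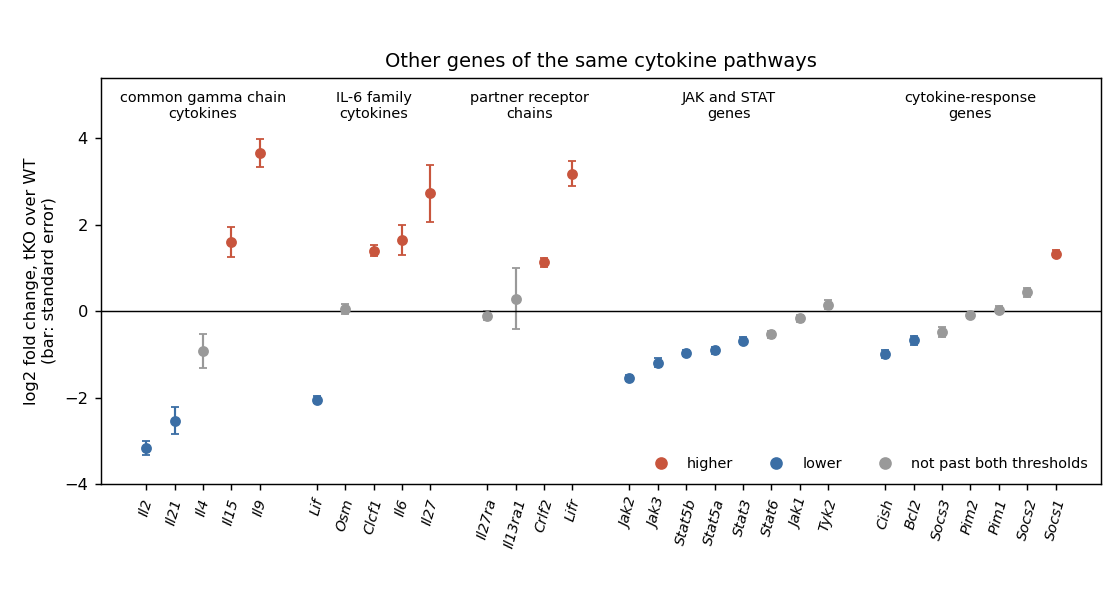
The log2 fold change in Mek1/2-tKO over WT cells is plotted for each tested gene of 5 lists, with the standard error as a bar and genes past both thresholds in red (higher) or blue (lower). Cytokine genes spread from -3.17 (Il2) to 3.67 (Il9), while 5 of the 8 JAK and STAT genes shown are blue, beside 16.4% lower among all genes tested.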

How the data were processed

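The authors trimmed the reads with Trimmomatic 0.36, mapped them to GRCm38 with software that the methods write as STRA, counted uniquely mapped reads per gene with featureCounts (Subread 1.5.1) and deposited raw counts without normalization. The kit is stranded, and the strand setting of the counting and the annotation release are not given in the sources used here. Symbols were matched to 54723 of 54752 identifiers.

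The deposited counts were filtered with filterByExpr, which kept 14330 genes, scaled by TMM and compared with the robust quasi-likelihood F test of edgeR 4.0.16 (R 4.3.3), and p values were adjusted by Benjamini-Hochberg over these genes. Calls required an adjusted p below 0.05 together with a change of 1.5-fold or more, as in the study. DESeq2 1.42.0, which the study used, was an alternative, with other scalings and filters, a likelihood-ratio test, a replicate block, other thresholds and each library left out. SE were derived from the F statistic. Where no read was counted, up to 3 reads (0.194 CPM in the shallowest library) remain possible from counting error alone. The fit was run on simulated counts with 200 changed genes and the same spread setting for every gene. There, 98.5% of the changed genes were recovered and 2 unchanged genes were called. In the data many more genes differed, so that the simulation does not show how the scaling or the error rate behave there. Replicates differed by more than sampling noise (a chi-square of 4.19 for each gene between the WT libraries and of 10.9 between the Mek1/2-tKO libraries).

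The members, lists and tests were chosen with earlier results of these data known, and the motifs and the windows printed were chosen after the fold changes were seen. The genes named are the members, the called genes of the pathway lists, Il2, Il6, Il21, Jak1, Jak3, Stat3 and Stat5a whatever their call, the targeted genes, and the 3 genes most like the called member with the largest fall. Other genes of these lists, the flanking genes, Cd4, Cd3d, Cd3g, Nkg7, Adgre1 and Gm20489 were named after their values were seen. One gene of the pathway lists is not reported here and is left out of its list's counts and median.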

Additional observations from a re-analysis of the deposited data

How the results depend on the processing

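The alternatives that kept all libraries left the direction of 9 members, Il2rg excepted, and the calls of Il2ra, Il6ra and Il6st as reported. Scaling by library size alone gave a log2 fold change of -0.042 for Il2rg, the opposite sign, and of -0.65 for Il7r, past the fold change threshold, which made 5 members lower. DESeq2 gave -0.93 for Il9r with an adjusted p of 0.126, which left 3 members lower. With no fold change threshold 9 members were lower, and at an adjusted p under 0.01 there were 3. Leaving out 1 library at a time, 3 to 5 members were lower and 0 were higher, and the log2 fold change ranged from -1.96 to -1.73 for Il6ra, -0.92 to -0.91 for Il2ra, -1.02 to -0.47 for Il6st, -1.09 to -0.74 for Il9r, -0.67 to -0.47 for Il7r, -0.59 to -0.37 for Il4ra, -0.55 to -0.38 for Il15ra, -0.41 to -0.32 for Il21r, -0.30 to -0.21 for Il2rb and 0.020 to 0.061 for Il2rg. The replicate numbers are shared by the genotypes but mark no stated pairing, and the deviations of same-numbered libraries correlated at -0.0262 across genes. With a replicate block 4 members were lower, the same genes as without it, and the log2 fold change of Il6ra was -1.83 and that of Il6st -0.73. The cause of these shifts was not tested. With 34 to 92 reads, Il9r was the member most limited by depth.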
